A study of Mus musculus with 5 samples.

Results

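Glycolysis splits glucose into pyruvate, and lactate dehydrogenase turns pyruvate into lactate when a cell does not burn it in its mitochondria. The genes described here are the glucose transporter gene Slc2a1 and the enzyme genes Hk2, Pfkp, Pfkl, Aldoa, Tpi1, Pgk1, Eno1, Pkm and Ldha. They are 10 of the 18384 genes listed over the 5 plates, taken by symbol. Most of them are textbook targets of hypoxia-inducible factor (HIF), a transcription factor that builds up when oxygen is low, and many carcinomas carry high levels of their transcripts. In the mammary gland, Slc2a1 is the main glucose transporter of the epithelium.

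Single cells came from mammary tumor organoids of MMTV-PyMT mice, in which the mouse mammary tumor virus promoter drives the polyoma middle T oncogene in mammary epithelium. All organoids were first cultured in basement membrane extract (BME) in a medium with FGF2, were released with Dispase II, and were then embedded for 5 days in Collagen I (labelled invasive, 2 plates, replicates 1 and 3) or again in BME (labelled as not invading, 3 plates, replicates 1 to 3). Organoids of both matrices were dissociated with Collagenase I, Dispase II and trypsin, and live single cells were sorted into 384-well plates and profiled by SORT-seq, which counts transcripts at their 3′ ends with molecular tags (UMIs). The model is 1 organoid source, no label says that plates came from separate cultures or animals, and the p-values below thus describe only how far these plates spread, which may be technical.

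A total of 556 wells passed the quality limits in Collagen I and 944 in BME. Wells were called basal when the keratin genes Krt5, Krt14 and Krt17 together held at least 5 of every 10000 counts, which gave 226 wells in Collagen I and 302 in BME, and non-basal when they held fewer than 2, which gave 277 and 537 wells. Wells were called cycling at 20 or more counts per 10000 in 20 proliferation genes, which gave 86 wells in Collagen I and 398 in BME, and non-cycling below 10, which gave 425 and 408. Counts were summed over the wells of a class in each plate, and levels are given as CPM, the counts of a gene per 1000000 counts of that sum. In such sums, fewer cells with a transcript and fewer transcripts per cell cannot be told apart.

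Plates differed in more than matrix. Kept wells held a median of 5106 and 2749 counts in Collagen I against 21739 to 25603 in BME, and the 3 BME plates shared a flow cell while each Collagen I plate had its own, so matrix and sequencing run cannot be told apart. A gene list for dissociation stress summed to 30.2 and 43.6 counts per 10000 in basal wells of Collagen I, against 7.65 to 10.0 in BME. A list of 6 fibroblast markers summed to 0.719 and 4.18 per 10000 in basal wells of Collagen I, against 0.235 to 0.353 in BME, with the high value in replicate 3. Leukocyte and endothelial markers stayed at or under 0.110 per 10000 in every class and plate. Genes of the mitochondrial genome took 7.89% and 9.32% of the counts in Collagen I, against 13.5% to 17.9% in BME. The part of these differences in the results was not tested, except where values without the wells concerned are given.

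Sequences just before the transcript starts are shown because HIF binds DNA at sites with the core ACGTG. Windows of 250 bases before and 50 bases after each RefSeq start (GRCm38.p6) were searched for ACGTG on either strand, which reads CACGT on the opposite one, and the palindrome CACGTG counts as 1 match to both. All 10 genes matched the table, and 6 of them held the letters in at least 1 window, against 21.8% of all 27025 genes. Counted by window, 7 of their 16 windows held the letters, against 19.6% of all 32851 windows. Aldoa, Pkm and Ldha each also had a window without a match. Capitals mark the matches, each stretch reads 5′ to 3′ on the strand of its gene, and a match is a description of letters and not of binding.
Slc2a1: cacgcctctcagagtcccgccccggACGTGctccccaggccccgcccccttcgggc
Aldoa: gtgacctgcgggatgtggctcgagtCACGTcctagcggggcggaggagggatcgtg
Pgk1: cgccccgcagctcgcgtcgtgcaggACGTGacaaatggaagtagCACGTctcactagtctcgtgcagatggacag
Pkm: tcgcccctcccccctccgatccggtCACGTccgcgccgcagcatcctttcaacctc
Ldha: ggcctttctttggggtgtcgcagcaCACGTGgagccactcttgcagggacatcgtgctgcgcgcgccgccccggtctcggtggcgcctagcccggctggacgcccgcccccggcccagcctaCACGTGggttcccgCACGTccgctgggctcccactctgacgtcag

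The Slc2a1 stretch is chr4:119108684-119108739 on the plus strand, with its match 36 bases before the start. The Aldoa stretch is chr7:126799350-126799405 on the minus strand, with the match 126 bases before 1 start and 202 before another. The Pgk1 stretch is chrX:106186925-106186999 on the plus strand and holds matches 150 and 131 bases before the start, in opposite orientations. The Pkm stretch is chr9:59657127-59657182 on the plus strand, 75 bases before the start at the match, and that window holds another match 8 bases after the start. The Ldha stretch is chr7:46845634-46845800 on the plus strand, with matches 145, 48 and 34 bases before the start, of which the first and second are the palindrome CACGTG, held by 8.09% of all genes. Hk2 held matches 226 and 52 bases before its start. No match was in the windows of Pfkp, Pfkl, Tpi1 and Eno1, which says only that these letters are not there.

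The first question was how the matrix bears on these genes within each class. Of the 9 genes with enough counts for the test, 7 rose in basal wells of Collagen I relative to BME, 8 rose in non-basal wells and 5 rose in cycling wells, and none fell. Among all genes tested, 19.5% were called in basal wells (11.0% higher and 8.58% lower), 28.5% in non-basal wells (14.3% higher and 14.2% lower) and 7.27% in cycling wells (4.19% higher and 3.08% lower). The median log2 fold change of the 9 genes was 0.92 in basal, 1.35 in non-basal and 0.77 in cycling wells, beside -0.03, -0.03 and -0.07 for all genes tested. Tests were edgeR quasi-likelihood tests on the plate sums with adjustment over all genes, and a gene is called at an adjusted p under 0.05.

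**Figure D1:**
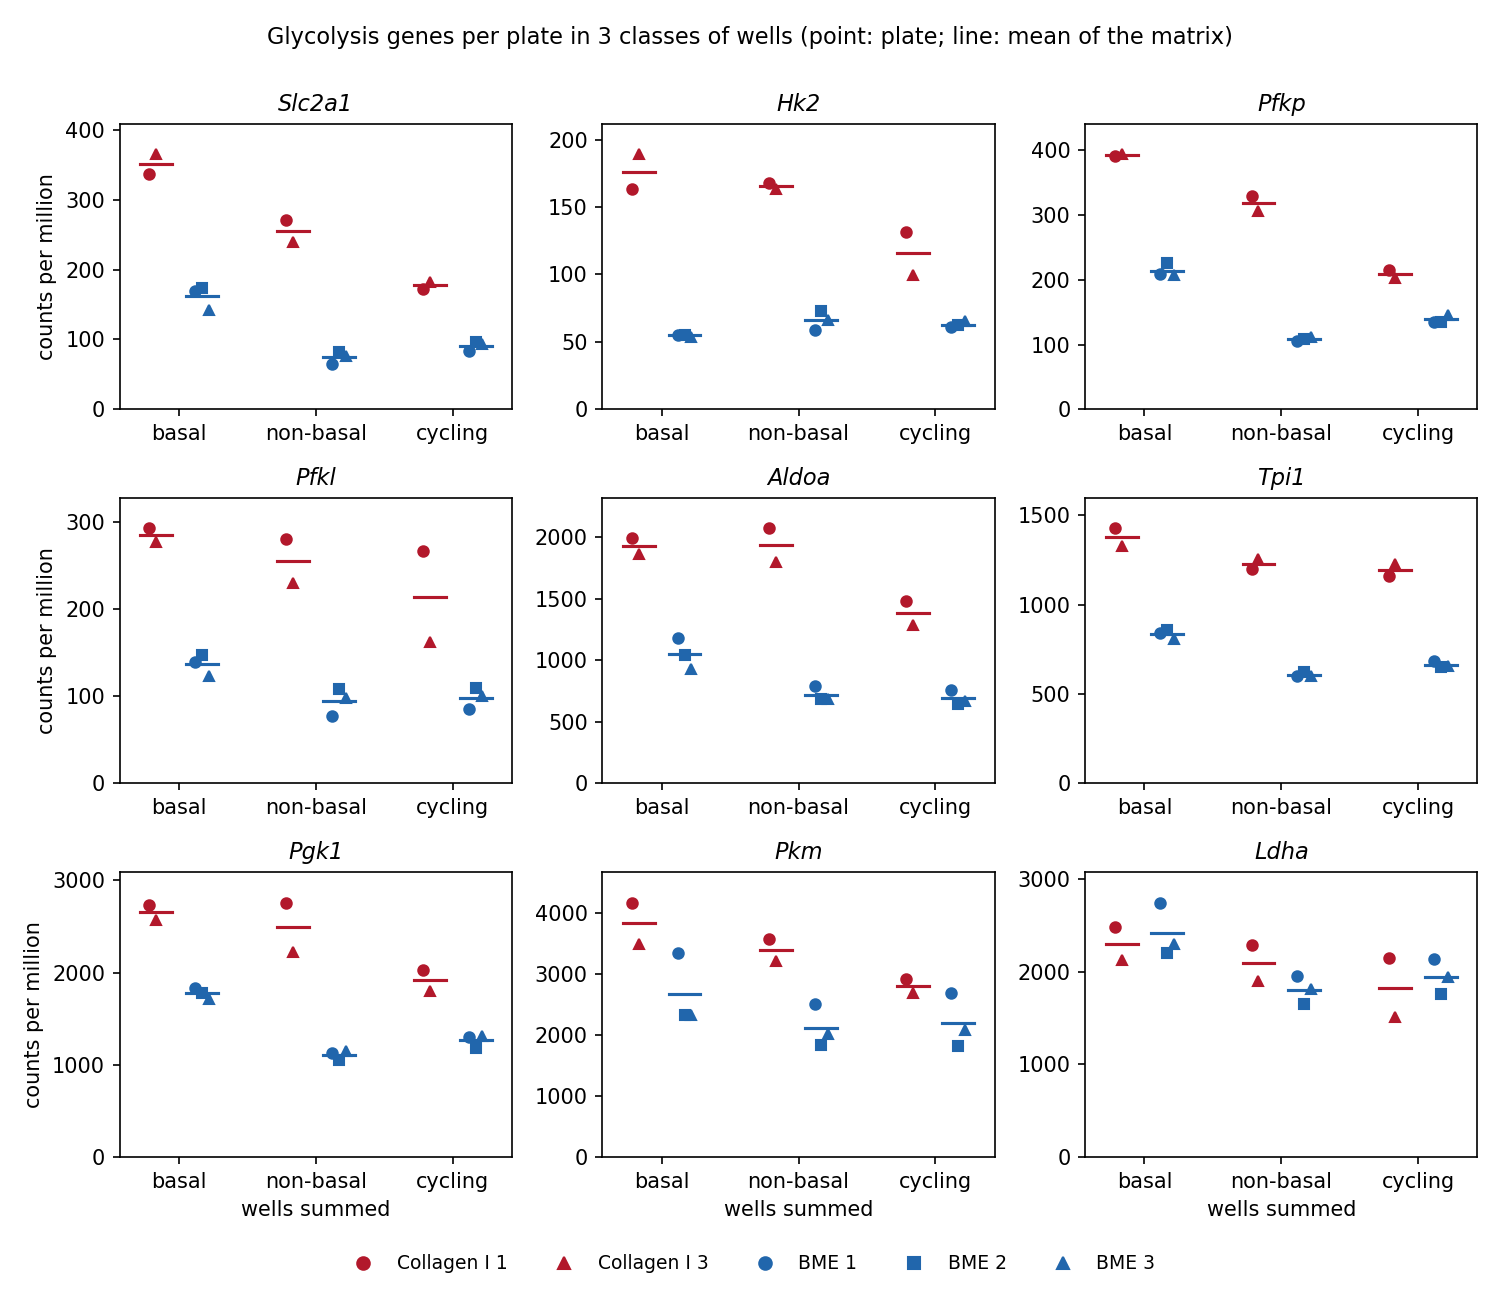
Levels of 9 glycolysis genes in CPM (y axes from 0) in basal, non-basal and cycling wells (x axes). Each point is 1 plate, Collagen I in red left of BME in blue, and the line is the mean of the matrix. In basal wells all Collagen I points lie above all BME points for 8 genes, and for Ldha they overlap.

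Glucose entry comes first in the pathway. Slc2a1 (chr4:119108711-119137983) codes for GLUT1, the membrane carrier that lets glucose into the cell. In basal wells, its level was 337 and 365 CPM in Collagen I replicates 1 and 3, against 169, 173 and 142 CPM in BME replicates 1, 2 and 3. In non-basal wells it was 271 and 239 CPM in Collagen I, against 65.1, 82.7 and 76.1 CPM in BME. Both Collagen I plates were above every BME plate in both classes, and the Collagen I level in non-basal wells was above the BME level in basal wells. The log2 fold change was 1.16 ± 0.17 (SE) in basal wells (adjusted p = 1.6e-05) and 1.80 ± 0.16 in non-basal wells (adjusted p = 7.63e-08).

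Hk2 (chr6:82725025-82774454) codes for hexokinase 2, which traps glucose by phosphorylating it. In basal wells it had 164 and 189 CPM in Collagen I, against 55.2, 55.3 and 53.7 CPM in BME. The BME plates lay within 2 CPM of each other, and the fold change of 3.31 was the highest of the 9 genes in basal wells (log2 1.73 ± 0.20, adjusted p = 3.44e-07). In non-basal wells, Hk2 had 167 and 164 CPM in Collagen I, against 59.1, 73.1 and 66.1 CPM in BME (log2 fold change 1.35 ± 0.16, adjusted p = 5.78e-06). Hk1, the hexokinase of most tissues, also rose, by log2 fold changes of 0.56 in basal and 0.81 in non-basal wells.

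Phosphofructokinase catalyses the committed step, and Pfkp (chr13:6579768-6648777, platelet type) and Pfkl (chr10:77986947-78010083, liver type) code for subunits of it. Pfkp had 392 and 394 CPM in basal wells of Collagen I, against 208, 226 and 207 CPM in BME. Pfkl had 293 and 277 CPM there, against 139, 147 and 124 CPM in BME. The log2 fold changes in basal wells were 0.92 ± 0.17 for Pfkp (adjusted p = 0.000246) and 1.10 ± 0.18 for Pfkl (adjusted p = 3.77e-05), with no overlap between the matrices. In non-basal wells Pfkp had 330.2 and 307 CPM in Collagen I, against 105, 109 and 111 CPM in BME. Pfkl had 281 and 229 CPM there, against 77.4, 108 and 98.5 CPM in BME. The non-basal changes were 1.57 ± 0.14 for Pfkp and 1.46 ± 0.17 for Pfkl, both called.

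Aldolase A, from Aldoa (chr7:126795234-126800751), splits the 6-carbon sugar, and triosephosphate isomerase, from Tpi1 (chr6:124810586-124814296), interconverts the products. In basal wells, Aldoa had 1991 and 1865 CPM in Collagen I, against 1181, 1039.6 and 927 CPM in BME. Tpi1 had 1427 and 1329 CPM there, against 844, 859 and 807 CPM in BME. Neither gene overlapped between the matrices, and the BME plates of Tpi1 were within 7% of each other. The log2 fold changes were 0.92 ± 0.19 for Aldoa (adjusted p = 0.000752) and 0.76 ± 0.18 for Tpi1 (adjusted p = 0.00306). With wells limited to those under 10% of counts from the mitochondrial genome, Aldoa was at 0.60 in basal wells and no longer called (adjusted p = 0.0771). In non-basal wells Aldoa had 2069.8 and 1797 CPM in Collagen I, against 792, 682 and 687 CPM in BME (1.44 ± 0.16). Tpi1 had 1198 and 1254 CPM in non-basal wells of Collagen I, against 602, 621 and 600.3 CPM in BME (1.03 ± 0.15).

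Phosphoglycerate kinase 1, from Pgk1 (chrX:106187100-106203699), makes the first ATP of the pathway, and pyruvate kinase, from Pkm (chr9:59656368-59679375), makes the last. Pgk1 had 2728 and 2572 CPM in basal wells of Collagen I, against 1836, 1779.9 and 1709 CPM in BME. In non-basal wells it had 2757 and 2221 CPM in Collagen I, against 1131, 1053 and 1155 CPM in BME. The matrices did not overlap, and the log2 fold change was 0.62 ± 0.19 in basal wells (adjusted p = 0.0216) and 1.18 ± 0.16 in non-basal wells (adjusted p = 2.11e-05). The basal call for Pgk1 was lost when any plate but BME replicate 1 was left out, with log2 fold changes of 0.58 to 0.62, and when wells were limited to those under 10% of counts from the mitochondrial genome, with 0.29.

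Pkm had 4174 and 3489 CPM in basal wells of Collagen I, against 3342, 2333 and 2332 CPM in BME. BME replicate 1 stood close below Collagen I replicate 3 and far above the other BME plates. The change of 0.56 ± 0.21 was not called (adjusted p = 0.0633), and without BME replicate 1 it was 0.77 and called. In non-basal wells Pkm had 3581 and 3221 CPM in Collagen I, against 2515, 1834 and 2013 CPM in BME, and rose by 0.70 ± 0.18 (adjusted p = 0.00672). That call was lost without either Collagen I plate (0.64 without replicate 1 and 0.74 without replicate 3) and under the mitochondrial limit (0.78, adjusted p = 0.0548). The counts do not tell the M1 and M2 splice forms of Pkm apart.

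Ldha (chr7:46841475-46855627) codes for the lactate dehydrogenase subunit that favours lactate. It had 2476 and 2121 CPM in basal wells of Collagen I, against 2743, 2203 and 2302 CPM in BME. In non-basal wells it had 2283 and 1895 CPM in Collagen I, against 1951, 1648 and 1814 CPM in BME. The plates of the 2 matrices overlapped in both classes. The log2 fold change was -0.03 ± 0.20 in basal wells (adjusted p = 0.928) and 0.23 ± 0.17 in non-basal wells (adjusted p = 0.329), so neither change was called for Ldha. Without BME replicate 1 the non-basal value was 0.31 and passed the threshold.

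Eno1 (chr4:150236721-150248879) codes for enolase 1, an abundant enzyme in most cells, yet it was listed with 2 and 4 counts over all kept wells of Collagen I and 5, 5 and 10 in BME. Near-identical copies of this gene elsewhere in the genome can take its reads or make them ambiguous, so its level here is uncertain. It was too low for the tests between matrices.

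**Figure D2:**
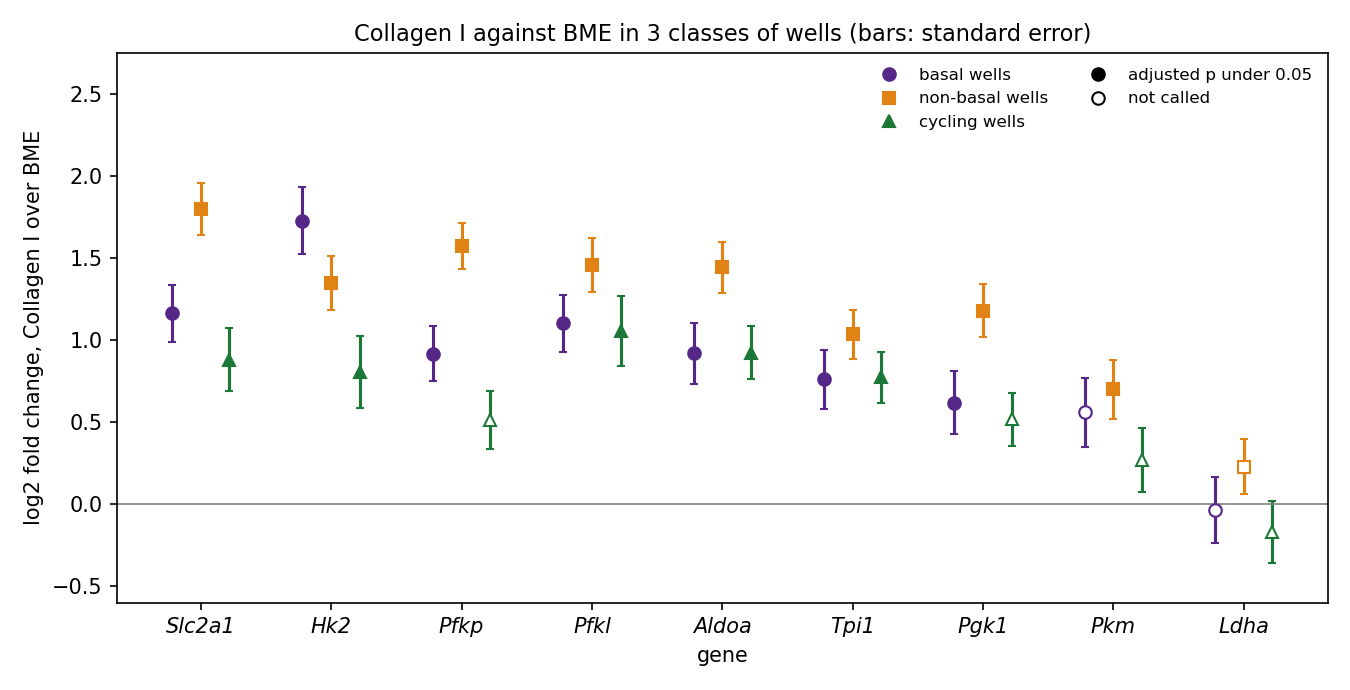
Log2 fold change of Collagen I over BME (y axis) for each gene (x axis) in basal, non-basal and cycling wells, with the standard error as bars and filled symbols for an adjusted p under 0.05. In non-basal wells the values run between 0.23 for Ldha and 1.80 for Slc2a1, and Ldha is the only gene not called in any class.

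In cycling wells the levels were as follows, and the changes were not tested against those of the other classes. Slc2a1 had 172 and 183 CPM in Collagen I, against 82.8, 96.9 and 93.9 CPM in BME. Hk2 had 132 and 99.7 CPM in Collagen I, against 60.98, 62.5 and 65.1 CPM in BME. Pfkl had 267 and 162 CPM in Collagen I, against 85.4, 109.6 and 101 CPM in BME, so that its Collagen I plates stood well apart from each other. The called log2 fold changes were 1.05 ± 0.21 for Pfkl, 0.92 ± 0.16 for Aldoa, 0.88 ± 0.19 for Slc2a1, 0.81 ± 0.22 for Hk2 and 0.77 ± 0.16 for Tpi1. Pgk1 had 2030.2 and 1802 CPM in Collagen I, against 1300.2, 1188 and 1309.7 CPM in BME, and its change of 0.52 ± 0.16 was not called (adjusted p = 0.0676), and neither was that of Pfkp (0.51 ± 0.18, adjusted p = 0.0925). Pkm (0.27 ± 0.19) and Ldha (-0.17 ± 0.19) overlapped between the matrices.

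These cycling calls rest on few plates and wells. Without Collagen I replicate 1 edgeR called 0 of the 9 genes (4 at an unadjusted p under 0.05), without Collagen I replicate 3 it called 2, and without BME replicate 1 it called 8. When wells with any fibroblast marker count were left out, 2 of the 9 were called. Calls among all genes in cycling wells also fell then, from the 786 of the main fit. Over all classes, 173 of 556 kept wells in Collagen I and 371 of 944 in BME held such a count. With wells under 10% mitochondrial counts 3 of the 9 were called. That limit left 391 of 556 wells in Collagen I and 162 of 944 in BME, and 5 of the 9 genes were called in basal and 7 in non-basal wells under it. Under it, calls among all genes also fell in basal, non-basal and cycling wells, with the counts given in the last section. In basal and non-basal wells the same removal of fibroblast wells left 7 and 8 of the 9 genes called, and leaving out cycling wells also left 7 and 8.

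Counting plates rather than testing gave a similar list. In basal wells 8 of the 9 genes had both Collagen I plates above all BME plates in CPM, where 23.5% of all genes did. In non-basal wells 8 of the 9 did, beside 26.6% of all genes, and in cycling wells 7 of the 9, beside 24.4%. None of the 9 had both Collagen I plates below all BME plates in any of the 3 classes, beside 29.7% of all genes in basal, 31.8% in non-basal and 23.7% in cycling wells.

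CPM shows a gene's share of the counts, and a synthetic spike-in (ERCC) added to each well gives a second scale. All genes together came to 3358 and 1519 counts per 100 ERCC counts in kept wells of Collagen I replicates 1 and 3, against 3950, 3453 and 4065 in BME. The 10 glycolysis genes summed to 44.6 and 17.5 per 100 ERCC in Collagen I, against 32.3, 24.4 and 29.3 in BME. Collagen I replicate 1 was thus above and replicate 3 below all BME plates. In basal wells Slc2a1 (1.32 and 0.658 per 100 ERCC in Collagen I, against 0.535 to 0.573 in BME), Hk2 and Pfkl were above BME in both Collagen I plates, and the other 6 genes overlapped. In non-basal wells Slc2a1 alone was above BME in both Collagen I plates. There 6 of the 9 genes were below all BME plates in Collagen I replicate 3. In cycling wells all 9 genes overlapped on this scale. Each of them was above all BME plates in Collagen I replicate 1 and below all of them in replicate 3. The direction of the changes above therefore holds for shares of counts, while on the spike-in scale the Collagen I plates disagreed with each other.

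**Figure D3:**
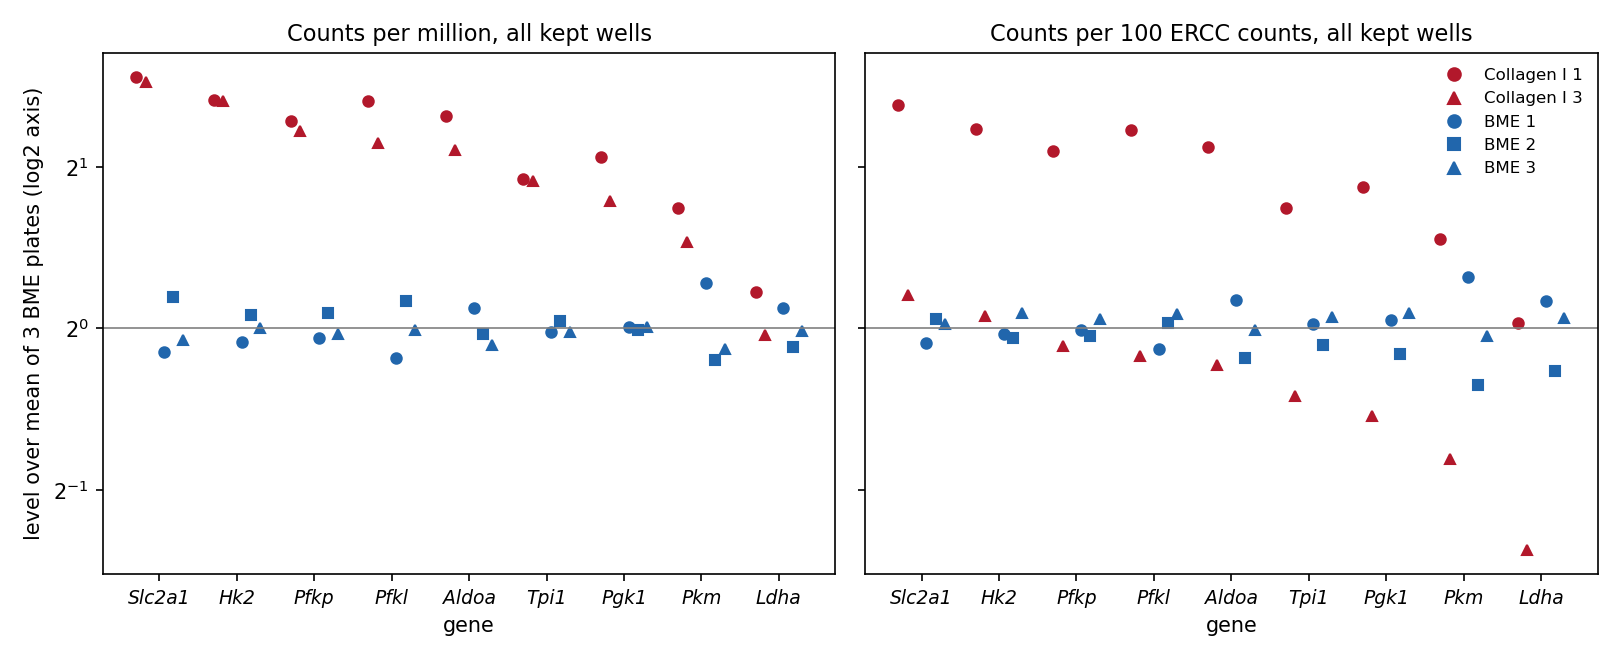
Level of each gene over the mean of the 3 BME plates (log2 axis) in all kept wells, as CPM (left) and per 100 ERCC counts (right). Each point is 1 plate, Collagen I in red and BME in blue. The left panel has both Collagen I plates above all BME plates for 8 genes, and the right panel for Slc2a1 alone.

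Within a plate, cells of different class can be compared with matrix and run held fixed. In Collagen I, none of the 9 genes was called between basal and non-basal wells in edgeR (or in DESeq2), with 1 of 9, Slc2a1, at an unadjusted p under 0.05, and 8.11% of all genes were called, 4.57% higher and 3.54% lower. In BME, 8 of the 9 were higher in basal than in non-basal wells and Hk2 was lower, and of all genes 35.7% were called, 18.3% higher and 17.4% lower. The test finds less in Collagen I. Of 2-fold changes planted in simulated data it found 39.6% there for this contrast, against 85.3% in BME.

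The Slc2a1 level in basal wells was 1.24 and 1.53 times that in non-basal wells in Collagen I replicates 1 and 3, and the log2 fold change was 0.39 ± 0.14 (adjusted p = 0.078). In BME the ratios were 2.60, 2.09 and 1.87 in replicates 1, 2 and 3 (1.10 ± 0.09, adjusted p = 3.68e-14). For Pfkp the ratios were 1.19 and 1.28 in Collagen I (0.24 ± 0.13) and 1.99, 2.07 and 1.86 in BME (0.96 ± 0.08, adjusted p = 3.43e-14). Both genes thus showed ratios above 1 in all 5 plates, as did Pfkl, Tpi1, Pkm and Ldha. For Slc2a1 and Pfkp no Collagen I ratio reached any BME ratio.

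Pgk1 had basal to non-basal ratios of 0.989 and 1.16 in Collagen I and of 1.62, 1.69 and 1.48 in BME. Aldoa had ratios of 0.962 and 1.04 in Collagen I and of 1.49, 1.52 and 1.35 in BME. These genes were higher in basal wells of every BME plate, while in Collagen I the plates fell on both sides of 1. In Collagen I, Pgk1, Aldoa, Pfkl, Tpi1, Ldha and Pkm had log2 fold changes between -0.06 ± 0.08 (Aldoa) and 0.11 ± 0.09 (Tpi1). In BME the log2 fold changes were 0.66 ± 0.06 for Pgk1, 0.53 ± 0.06 for Aldoa, 0.52 ± 0.09 for Pfkl, 0.45 ± 0.07 for Tpi1, 0.41 ± 0.06 for Ldha and 0.31 ± 0.06 for Pkm, all called. With wells thinned to 2000 counts, Pfkl (0.03, adjusted p = 0.968) and Slc2a1 (0.52, adjusted p = 0.247) were not called in BME, and Pfkl was also not called without cycling wells (0.29, adjusted p = 0.0658).

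Hk2 went the other way in BME. Its ratio of basal to non-basal wells was 0.977 and 1.15 in Collagen I (0.02 ± 0.17), and 0.934, 0.756 and 0.813 in BME (-0.29 ± 0.11, adjusted p = 0.031). The BME call was lost without BME replicate 2 or 3 (-0.25 and -0.31) and when cycling wells were left out (-0.31). It was also lost with DESeq2 (-0.32), with other class limits (-0.25) and in thinned wells (-1.09, adjusted p = 0.0505).

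The difference between the matrices in this contrast, tested by an interaction term in a fit that blocks on plate, was negative and called for 4 of the 9 genes, where 4.52% of all genes were called, 3.03% negative and 1.49% positive. It was -0.72 ± 0.15 for Pfkp (adjusted p = 0.00117), -0.70 ± 0.17 for Slc2a1 (adjusted p = 0.00574), -0.62 ± 0.10 for Pgk1 (adjusted p = 4.75e-05) and -0.59 ± 0.11 for Aldoa (adjusted p = 0.000199). Ldha (-0.32 ± 0.10, adjusted p = 0.0534) and Tpi1 (-0.34 ± 0.11, adjusted p = 0.0753) came close to the threshold. Without Collagen I replicate 1 the calls for Pfkp (-0.69) and Slc2a1 (-0.57) were lost, and without BME replicate 1 that for Slc2a1 (-0.58). In thinned wells neither Slc2a1 (-0.30, adjusted p = 0.774) nor Pfkp (-0.89, adjusted p = 0.11) was called, and DESeq2 called 3 of the 9 genes, without Slc2a1 (-0.65, adjusted p = 0.137). The 3 keratin genes of the class rule, which differ between the classes by construction, summed to 27.7 and 33.6 per 10000 in basal wells of Collagen I and 21.5 to 30.2 in BME. Non-basal wells held 0.377 and 0.188 in Collagen I and 0.420 to 0.698 in BME. The classes were also checked with genes outside the rule. The basal check genes Trp63, Cdh3, Itga6 and Col17a1 summed to 10.0 and 8.89 per 10000 in basal wells of Collagen I, against 7.28 to 8.55 in BME. In non-basal wells they summed to 3.30 and 2.78 in Collagen I and 1.22 to 1.41 in BME. Luminal check genes summed to 37.5 and 34.8 per 10000 in basal wells of Collagen I, against 11.5 to 12.6 in BME. Non-basal wells held 31.9 and 31.7 in Collagen I and 24.4 to 28.02 in BME. Basal wells thus held more of this list than non-basal wells in both Collagen I plates, and less in all BME plates. By this check the classes were not set apart in Collagen I as they were in BME. Of the basal wells, 31 of 226 in Collagen I and 30 of 302 in BME rested on a single keratin count. Non-basal wells had median counts of 5920 and 2741 in Collagen I, against 24769 to 25329 in BME. The class rule was applied at full depth in every setting, thinned wells included. Its limits thus stood for fewer keratin counts per well in Collagen I, where a basal cell can more easily be called non-basal. The part of depth, check genes and single keratin counts in the difference was not tested.

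**Figure D4:**
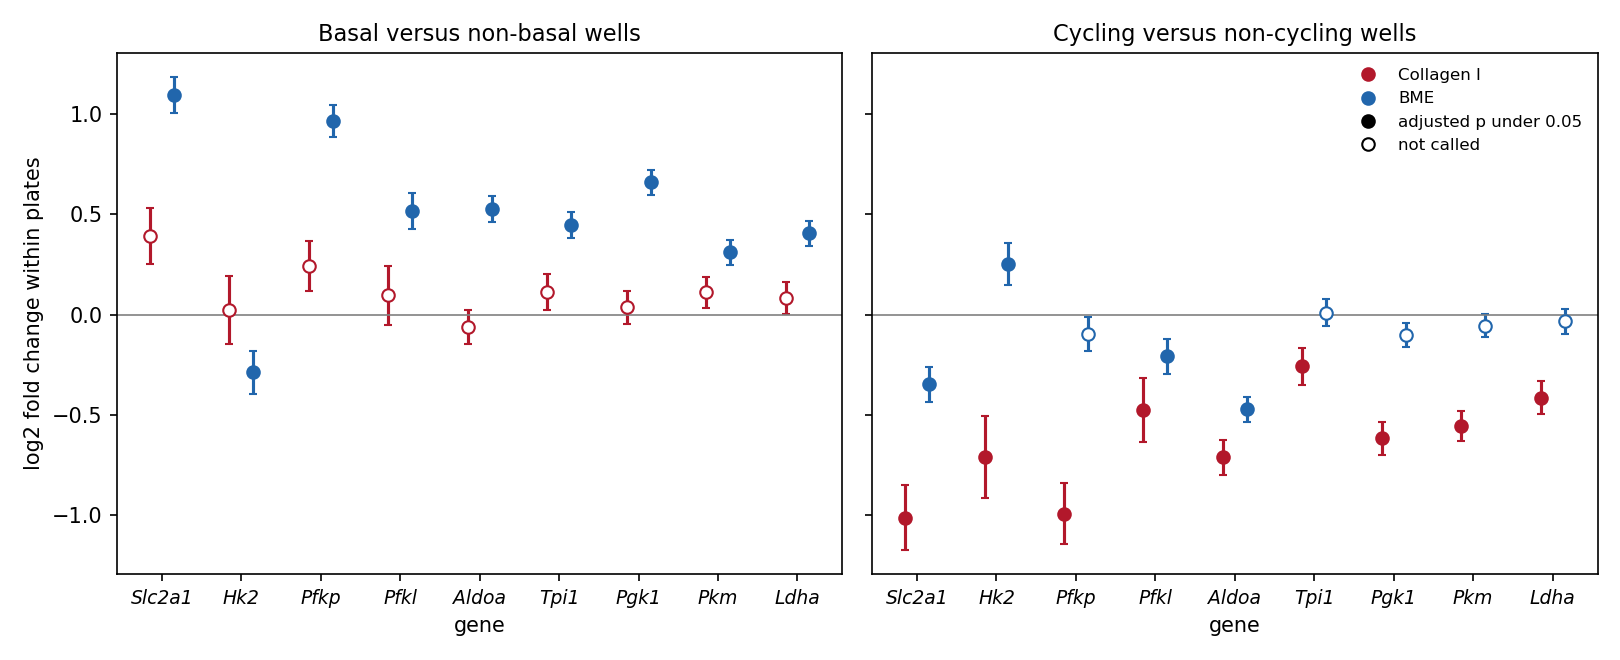
Log2 fold change within plates (y axes) for each gene (x axes), basal over non-basal wells on the left and cycling over non-cycling wells on the right, with Collagen I in red left of BME in blue, standard errors as bars and filled symbols for an adjusted p under 0.05. On the left all BME values but that of Hk2 are above 0.3, while the Collagen I values lie between -0.06 and 0.39. On the right all Collagen I values lie below 0.

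Cycling wells were compared with non-cycling wells in the same way. In Collagen I, 9 genes were lower in cycling wells, where 13.3% of all genes were called, 6.74% lower and 6.60% higher. In BME, Aldoa, Slc2a1 and Pfkl were lower, Hk2 was higher and Pfkp, Tpi1, Pgk1, Pkm and Ldha were not called, where 41.3% of all genes were called, 18.2% lower and 23.1% higher. Eno1 also passed the filter in these contrasts and was not called in either matrix or in their difference.

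The cycling to non-cycling ratio of Slc2a1 was 0.526 and 0.549 in Collagen I and 0.742, 0.640 and 0.902 in BME. For Pfkp it was 0.547 and 0.540 in Collagen I and 0.938, 0.747 and 1.03 in BME. Both genes had about 2-fold lower levels in cycling wells of each Collagen I plate, with log2 fold changes of -1.01 ± 0.16 (Slc2a1, adjusted p = 1.34e-06) and -0.99 ± 0.15 (Pfkp, adjusted p = 3.78e-07). In BME the values were -0.35 ± 0.09 (Slc2a1, adjusted p = 0.000938) and -0.10 ± 0.08 (Pfkp, adjusted p = 0.368). Aldoa was lower in cycling wells of both matrices, by -0.71 ± 0.09 in Collagen I and -0.47 ± 0.06 in BME.

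The other Collagen I values were -0.71 ± 0.20 for Hk2, -0.62 ± 0.08 for Pgk1, -0.56 ± 0.07 for Pkm, -0.48 ± 0.16 for Pfkl, -0.41 ± 0.08 for Ldha and -0.26 ± 0.09 for Tpi1, the smallest. The call for Tpi1 was kept in 1 of 12 alternatives and lost without any one plate (-0.29 to -0.22), and that for Pfkl was kept in 6 of 12. In BME, Pgk1, Pkm, Ldha and Tpi1 lay between -0.10 and 0.01. The sign for Tpi1 in BME turned negative under other scalings. Hk2 had cycling to non-cycling ratios of 0.778 and 0.541 in Collagen I and of 1.16, 1.05 and 1.21 in BME, below 1 in both Collagen I plates and above 1 in all BME plates. Its BME value of 0.25 ± 0.11 was only just called (adjusted p = 0.0492) and lost the call without any one BME plate (0.20 to 0.27). Pfkl in BME was likewise just called (adjusted p = 0.0491) and was not without any one BME plate (-0.23 to -0.22), with DESeq2 (-0.26) or with no filter on low counts (-0.20). Pgk1 in BME was called lower in 4 of 12 alternatives. Without Collagen I replicate 3, 5 of the 9 Collagen I genes were called, and Hk2 (-0.46), Pfkl (-0.23), Ldha (-0.24) and Tpi1 (-0.29) were not.

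The difference between the matrices in the cycling contrast was negative and called for 6 genes, where 1.81% of all genes were called, 1.40% negative and 0.408% positive. It was -0.96 ± 0.23 for Hk2 (adjusted p = 0.00941), -0.90 ± 0.18 for Pfkp (adjusted p = 0.00077), -0.66 ± 0.19 for Slc2a1 (adjusted p = 0.0456), -0.52 ± 0.10 for Pgk1 (adjusted p = 0.000814), -0.50 ± 0.09 for Pkm (adjusted p = 0.000442) and -0.38 ± 0.10 for Ldha (adjusted p = 0.0279). Aldoa (-0.24 ± 0.11) and Pfkl (-0.27 ± 0.18) were not called. All 9 values were negative. The calls depend on the method, as DESeq2 called 0 of them (6 at an unadjusted p under 0.05) with values of -0.33 to -0.92, and scaling by library size alone called 2. Library-size scaling moved the median of all genes in this difference to 0.08, against -0.09 with TMM. Without Collagen I replicate 3, edgeR called Pgk1 and Pkm but not the other 4 genes. The call for Slc2a1 was kept in 1 of 12 alternatives (without BME replicate 2) and that for Ldha in 1 of 12 (without Collagen I replicate 1), and in thinned wells edgeR called 0 of the glycolysis genes (4 at an unadjusted p under 0.05). The dissociation stress list was also lower in cycling wells, at 16.6 and 28.02 per 10000 in Collagen I and 5.31 to 7.35 in BME, against 31.5 and 43.2 in non-cycling wells of Collagen I and 7.58 to 10.5 in BME, and its part was not tested.

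In single wells with at least 2000 counts, the 10 genes summed to a median of 129 and 118 per 10000 counts in basal wells of Collagen I, against 102, 87.6 and 84.8 in BME. In non-basal wells the medians were 136 and 118 in Collagen I, against 65.8, 54.8 and 58.9 in BME. The classes thus had like medians in Collagen I, and basal wells were higher in each BME plate. In cycling wells the medians were 101 and 92.3 in Collagen I, against 70.4, 54.9 and 68.3 in BME. Over all kept wells, the 95th percentile was 3.94 and 4.18 times the 5th in Collagen I, and 5.03, 5.21 and 4.00 times in BME. Wells of the matrices overlapped, as the 95th percentile of non-basal BME wells (98.5 to 133) reached or passed the 25th percentile of non-basal Collagen I wells (97.99 and 92.3).

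**Figure D5:**
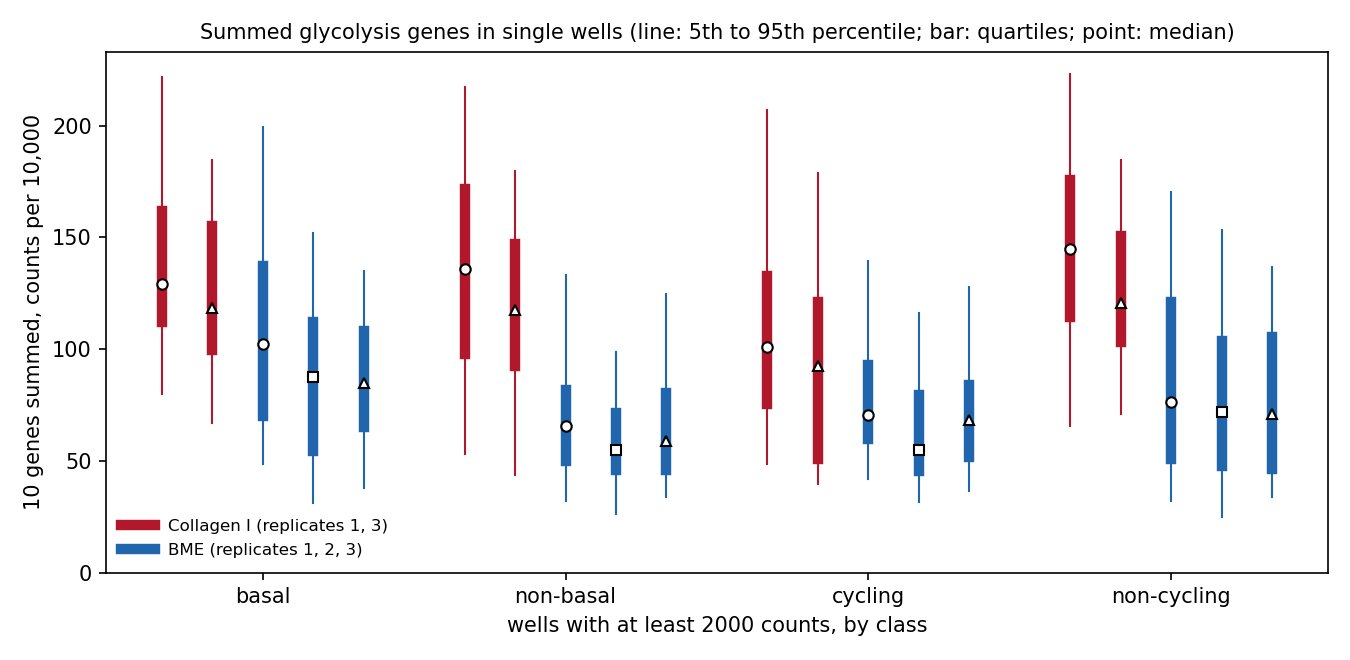
The 10 glycolysis genes summed per well, in counts per 10000 (y axis), for wells with at least 2000 counts by class and plate (x axis), Collagen I in red left of BME in blue. Points are medians, bars quartiles and lines the 5th to 95th percentile. The Collagen I medians in non-basal wells are 136 and 118, and those of BME lie between 54.8 and 65.8.

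To compare wells at equal depth, each was thinned to 2000 counts. At this depth Slc2a1 had a count in 44.04% and 39.8% of wells in Collagen I, against 19.6%, 18.8% and 17.8% in BME. Hk2 had one in 31.7% and 26.4% of wells in Collagen I, against 11.5%, 9.41% and 11.6% in BME. Pkm and Ldha had a count in over 90% of wells of all 5 plates, so for them the level and not the share of wells carries the comparison. The thinning left out 33 and 104 wells in Collagen I and 33, 63 and 48 in BME.

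The spread between wells beyond counting error differed by gene. The coefficient of variation after removal of Poisson error was 0.390 and 0.383 for Aldoa in Collagen I, against 0.850, 0.649 and 0.673 in BME. For Pgk1 it was 0.412 and 0.445 in Collagen I, against 0.665, 0.693 and 0.627 in BME. For Tpi1 it was 0.444 and 0.461 in Collagen I, against 0.628, 0.582 and 0.648 in BME. For Ldha it was 0.310 and 0.319 in Collagen I, against 0.495, 0.486 and 0.398 in BME. These 4 genes, and likewise Hk2 and Pfkp, had lower values in both Collagen I plates than in all BME plates, and the difference was not tested. For Hk2 the Collagen I values were 0.314 and 0, at means of 0.390 and 0.303 counts per well. At such low counts the 0 means only that no spread beyond counting error was seen. For Pkm the values overlapped, at 0.342 and 0.364 in Collagen I and 0.360 to 0.480 in BME.

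Across wells of a plate the later enzymes went together most. At 2000 counts the highest values in Collagen I were 0.31 for Pgk1 with Pkm and 0.31 for Aldoa with Pgk1 (mean Pearson correlation over the plates of 201 and 218 wells). In BME wells thinned to 5000 counts, the mean Pearson correlation over the 3 plates (232 to 267 wells each) was 0.57 for Pgk1 with Ldha, 0.52 for Pgk1 with Pkm and 0.49 for Aldoa with Pgk1. Slc2a1 and Hk2, the entry steps, had a correlation there of -0.01 with each other and of at most 0.23 and 0.15 with any other of the genes. Wells of a plate share a library, low counts pull a correlation towards 0, and these values are descriptions.

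The summed genes had a Spearman correlation across wells with the 3 basal keratins of 0.02 and 0.03 in Collagen I and of 0.31, 0.34 and 0.30 in BME. With the proliferation genes it was -0.22 and -0.24 in Collagen I and -0.13 to 0.02 in BME. With the share of mitochondrial genome counts it was -0.48 and -0.28 in Collagen I and -0.40, -0.26 and -0.29 in BME, negative in all 5 plates. Both are shares of the same well total, so a larger mitochondrial share leaves less for all other genes. The sign is therefore partly set by this arithmetic.

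Among 496 other genes with enough counts in Collagen I, the 10 whose wells were most like the summed glycolysis genes were Ndrg1 (mean correlation 0.48), Ero1l (0.44), Bsg (0.43), Bnip3 (0.42), Fam162a (0.40), Pgam1 (0.40), Anxa2 (0.39), 2610528A11Rik (0.38), Gapdh (0.38) and Gpi1 (0.37). These wells were thinned to 2000 counts. Among 1334 genes in BME wells thinned to 5000 counts, the 10 were Pgam1 (0.66), Fam162a (0.52), Gapdh (0.52), Bnip3 (0.52), Bsg (0.48), Ero1l (0.47), Bnip3l (0.45), Vegfa (0.45), Mif (0.44) and Car9 (0.42). Pgam1 and Gapdh are glycolysis enzymes outside the 10 genes, Bnip3 and Bnip3l are mitophagy receptors, Vegfa is the main angiogenic growth factor and Car9 a membrane carbonic anhydrase. The lists shared 6 genes, 60% of each, namely Bnip3, Bsg, Ero1l, Fam162a, Gapdh and Pgam1. Values at these unequal depths are not comparable, and at 2000 counts the BME correlation was 0.46 for Pgam1 and 0.41 for Gapdh, and the keratin gene Krt14 (0.26) and the actin genes Actg1 (0.28) and Actb (0.25) were among the 10.

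Other genes of glucose metabolism were followed from lists, as counts of called genes for Collagen I against BME. Of the other glycolysis enzymes, 3 of 7 tested rose in basal wells and 4 of 8 in non-basal wells, and none fell. In basal wells these were Aldoc (log2 fold change 1.41), the brain-type aldolase, Gpi1 (1.21), glucose-6-phosphate isomerase, and Bpgm (1.17), which makes 2,3-bisphosphoglycerate. Gpi1 had 804 and 948 CPM in basal wells of Collagen I, against 398, 402 and 374 CPM in BME. In non-basal wells they were Gpi1 (1.94), Aldoc (1.80), Pfkm (1.28) and Pgam1 (0.50). Gapdh was not called and its plates overlapped, at 1268 and 1263 CPM in basal wells of Collagen I and 1891, 1006 and 1014 CPM in BME. Pgam1 and Gapdh have many processed copies that can share their reads, so their levels are uncertain.

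Pfkfb3 makes fructose-2,6-bisphosphate, the activator of phosphofructokinase. It had 66.9 and 58.6 CPM in basal wells of Collagen I, against 16.9, 25.7 and 15.7 CPM in BME, and rose by 1.72 in basal and 2.45 in non-basal wells. It was the single gene called higher among 4 tested regulators in basal wells and 6 in non-basal wells, where Pck2 fell by 0.87.

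Of 5 lactate and pyruvate transport genes tested, Bsg rose and Slc16a1 fell in basal wells. Bsg, which codes for basigin, the partner protein that brings lactate carriers to the membrane, had 2135 and 2626 CPM in basal wells of Collagen I, against 996, 839 and 722 CPM in BME. It rose by 1.53 in basal, 2.23 in non-basal and 1.63 in cycling wells. Slc16a1, the lactate carrier MCT1, had 141 and 82.5 CPM in basal wells of Collagen I, against 249, 221 and 202 CPM in BME (-0.96). In cycling wells it was also lower (-0.90).

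The pyruvate dehydrogenase complex feeds pyruvate to the mitochondria and is switched off by its kinases. Of 10 genes tested, the kinase Pdk1 alone was called higher, by 0.93 in basal and 1.38 in non-basal wells. In non-basal wells 4 fell, namely Pdhx (-1.68), Dlat (-1.13), Dld (-0.86) and Pdhb (-0.57), which code for parts of the complex, while none fell in basal wells. In the pentose phosphate pathway none of 7 was called in basal wells, and Rpe (-1.98) and G6pdx (-0.87) fell in non-basal wells.

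In the side branches 4 genes rose and 2 fell of 12 tested in basal wells. Those that rose were Gbe1 (1.47) and Gys1 (0.92), which build glycogen, Pgm2 (1.00), a phosphoglucomutase, and Gfpt1 (0.74), the entry enzyme of hexosamine synthesis. Those that fell were Psat1 (-2.42) and Phgdh (-2.02), which lead from 3-phosphoglycerate to serine. Psat1 had 42.1 and 37.3 CPM in basal wells of Collagen I, against 235, 182 and 240.1 CPM in BME. In non-basal wells the same 4 genes rose, Gbe1 by 2.70 and Gys1 by 2.06, and Psat1 (-1.77), Phgdh (-1.12), Gpd1 (-2.86) and Gpd2 (-0.99) fell. Both serine genes were higher in cycling than non-cycling wells of Collagen I, Psat1 by 2.10 and Phgdh by 1.82.

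Among 12 HIF targets outside glycolysis, 11 rose in basal wells, 12 in non-basal wells and 8 of 11 tested in cycling wells of Collagen I, with medians of 1.99, 2.77 and 1.67. Vegfa had 1596 and 1892 CPM in basal wells of Collagen I, against 393, 375 and 282 CPM in BME. Egln3, a HIF prolyl hydroxylase from the list of regulators, had 985 and 1201 CPM there, against 228, 246 and 184 CPM in BME. In the contrasts within plates, this list had 1 of 12 genes, Car9 (0.35), higher in basal than non-basal wells of Collagen I (median 0.10), and 11 of 12 in BME (median 1.18). In cycling wells 9 of 12 were lower in Collagen I (median -1.21) and 8 of 12 in BME (median -0.66). The lists and the glycolysis genes were chosen with results of these data known, so these counts are descriptions.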

How the data were processed

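Per the labels, libraries were made by SORT-seq with CEL-Seq2 primers from single cells of 5 plates, and the reads were aligned with BWA to mm10; the BWA version is not given in the sources used here. The authors deposited expected counts, transcripts per gene and well after a correction of UMI numbers for saturation, not normalized. The plates held 1631981 and 1091410 counts in Collagen I and 9077590, 9335872 and 10911740 in BME. A well was kept if it had over 500 counts, under 8000 genes and under 10% of its counts in genes with names starting with mt-. Spike-ins were left out. Genes such as mtNd1 and mtCo3 are listed without that hyphen and escaped this limit. Kept wells could thus hold over 10% of counts from the mitochondrial genome, and in BME 162 of 944 were under 10%. The members and gene lists were chosen with earlier results of these data known.

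Sums per class and plate were rounded and tested in edgeR 4.0.16 (limma 3.58.1, R 4.3.3) with TMM, filterByExpr and robust quasi-likelihood fits, with Benjamini-Hochberg adjustment over all genes. Class contrasts had the plate as a block, with the matrix difference as an interaction. Standard errors are the log2 fold change over the square root of F. The test was tried on simulated data. Of the planted 2-fold changes between matrices 30.9% were found in basal, 41.7% in non-basal and 17.7% in cycling wells. Of the 4-fold changes 74.2%, 80.8% and 68.7% were found, with 5, 6 and 3 false calls. For the matrix differences of the basal and cycling contrasts, 30.5% and 23.2% of the 2-fold changes were found. Within a matrix, 39.6% in Collagen I and 85.3% in BME were found for the basal contrast. For the cycling contrast they were 22.9% and 84.5%. The simulated counts had a common dispersion for all genes and no effect of sequencing run. The false calls therefore do not give the error rate of these plates. Of the genes outside the 10, up to 4 per list and direction were named, by size of change among those called, and 10 by likeness. Gene positions are those of GENCODE vM21. DESeq2 1.42.0, other scalings, filters, thinning and class limits, a replicate block and leaving out each plate were alternatives; 2 more, a limit on chromosome M counts and removal of wells with fibroblast counts, were added after seeing the data. Python 3.11.15 with pandas 2.3.3, NumPy 2.4.6, SciPy 1.17.1 and Matplotlib 3.10.9 was used. No doublets were removed.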

Additional observations from a re-analysis of the deposited data

Results flagged for a closer look

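The contrast of basal with non-basal wells differed between the matrices, by the interaction test in edgeR, for 4 of the glycolysis genes. As log2 fold change in Collagen I minus that in BME, the difference was -0.59 for Aldoa, -0.72 for Pfkp, -0.62 for Pgk1 and -0.70 for Slc2a1. The contrast of cycling with non-cycling wells differed for 6 genes, with -0.96 for Hk2, -0.38 for Ldha, -0.90 for Pfkp, -0.52 for Pgk1, -0.50 for Pkm and -0.66 for Slc2a1. Pfkp, Pgk1 and Slc2a1 are in both groups. The calls depend on the method. For the cycling contrast, DESeq2 and edgeR on thinned wells each called 0 of the genes (6 and 4 at an unadjusted p under 0.05). Scaling by library size alone called 2. For the basal contrast, DESeq2 called 3 and edgeR on thinned wells 2. Groups of 2 and 3 plates are too small for a check of single plates that stand apart.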

How the results depend on the processing

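Leaving out 1 plate at a time called 913 to 2265 genes and 6 to 8 of the 9 glycolysis genes for Collagen I against BME in basal wells (2012 and 7 with all plates), 1325 to 3849 and 7 to 9 in non-basal wells (3160 and 8), and 181 to 1324 and 0 to 8 in cycling wells (786 and 5). For basal against non-basal wells it called 279 to 965 genes and 0 to 1 of the glycolysis genes in Collagen I (881 and 0), 2766 to 4037 and 8 to 9 in BME (3873 and 9), and 199 to 492 and 2 to 4 for the difference (491 and 4). For cycling against non-cycling wells it called 733 to 1564 and 5 to 8 in Collagen I (1503 and 9), 3389 to 4780 and 2 to 4 in BME (4658 and 4), and 33 to 193 and 2 to 5 for the difference (204 and 6). Where 1 Collagen I plate remained, it was assumed to vary like the BME plates. Thinning to 2000 counts, which tested fewer genes, called 697, 1167 and 323 genes between matrices in basal, non-basal and cycling wells, with 3 glycolysis genes in cycling wells, 338, 601 and 100 genes for the basal contrast in Collagen I, BME and their difference, with 2 glycolysis genes for the difference, and 505, 945 and 11 for the cycling contrast, with 2 in BME and 0 for the difference (4 at an unadjusted p under 0.05). The limit on chromosome M counts called 895, 1140 and 377 genes between matrices and 3 glycolysis genes in cycling wells, and removal of wells with fibroblast counts 2088 in non-basal and 392 in cycling wells, with 2 glycolysis genes. DESeq2 called 2320 genes for the basal contrast in BME and 256 for its difference, and 2698 for the cycling contrast in BME, with 2 glycolysis genes, and 53 for its difference, with 0 (6 unadjusted). Leaving out cycling wells called 2253 genes for the basal contrast in BME. Scaling by library size called 1 glycolysis gene (Slc2a1) for the basal contrast in Collagen I and 2 for the cycling difference, no filter on low counts 2 for cycling in BME, and other class limits 1 (Slc2a1), and 89 genes with 2 glycolysis genes for the cycling difference. The causes of these changes were not tested.

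Signs turned only near 0. Ldha in basal wells was 0.0049 without cycling wells and -0.142 to 0.085 when 1 plate was left out, positive at 0.03 without Collagen I replicate 3 and 0.085 without BME replicate 1, and in cycling wells -0.43 to 0.032, positive without Collagen I replicate 3. In the basal contrast in Collagen I, thinning gave -0.10 for Pfkl, -0.051 for Tpi1, -0.038 for Pgk1 and -0.021 for Ldha, other class limits -0.13 for Hk2, -0.037 for Pfkl and -0.0094 for Pgk1, leaving out cycling wells -0.14 for Hk2, -0.10 for Pgk1, -0.00039 for Pkm and -0.0054 for Ldha, and leaving out a plate -0.086 to 0.12 for Hk2, -0.0039 to 0.20 for Tpi1 and -0.068 to 0.12 for Pgk1. Tpi1 in the cycling contrast in BME was -0.11 thinned, -0.043 with RLE factors, -0.042 with DESeq2, -0.051 by library size, and -0.083 to 0.055 when a plate was left out, with -0.0024 and -0.083 without Collagen I or BME replicate 1.

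The labels give the matrices only replicate numbers 1 and 3 in common, and nothing says that a number marks a shared culture. With the replicate block 1958, 3017 and 872 genes and 6, 8 and 4 glycolysis genes were called between matrices in basal, non-basal and cycling wells, where Pgk1 in basal (0.61) and Hk2 in cycling wells (0.79) were not called. Depth limits the low genes, Hk2 and Slc2a1 first, and Eno1 cannot be read.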
